A study of Drosophila melanogaster with 3 samples.

Results

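The summits described here are those of peaks from chromatin immunoprecipitation of GFP-tagged E(spl)mβ. They lie upstream of promoters where all protein-coding starts within 500 bp of the summit are on a single strand. Of 8549 reproducible summits, 1885 had protein-coding transcription start sites (TSSs) of a single strand within 500 bp and lay upstream of the nearest one (22.0%, exact 95% interval 21.2 to 22.9%). These are called the members. The rule used position and annotation only, and no member was equally near to a pair of TSSs. The remaining summits comprised 580 at or downstream of the start of one-strand promoters, 1104 near TSSs on both strands (divergent promoters), and 4980 away from promoters.

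The libraries came from chromatin immunoprecipitation with sequencing of Drosophila melanogaster embryos, aged 0 to 24 h and of mixed sex. All embryos were of 1 transgenic line in which E(spl)mβ carries GFP at its C terminus. An antibody to GFP was used for precipitation, although a label names E(spl)mβ-HLH as the antibody. There was 1 group of 3 biological replicates, with no other genotype, stage or treatment, and fragments measured 200 to 800 bp. Whole embryos mix all cell types, and the sources used here do not give the extent or the copy number of the transgene. All peaks were called against 1 control alignment, read depth is unknown, and the authors' signal ranks peaks only within a list.

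E(spl)mβ belongs to the Hairy and Enhancer-of-split family of basic helix-loop-helix repressors, which recruit the corepressor Groucho and restrain neural differentiation where Notch is active. Proteins of this family bind E-boxes and related hexamers such as the N-box and the Hairy site. Fly promoters carry other short words near the start. The DNA replication-related element (DRE) is bound by DREF, motif 1 by M1BP, and GA repeats by GAGA factor, and motif 7 is a further element of broadly active promoters. Su(H) is the DNA-binding partner of activated Notch.

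The following windows cover 100 bp on each side of a summit and are read in the direction of transcription of the nearest gene. They show the strongest summit and its neighbour with a Su(H) word. For each of 6 words they also show the strongest window free of exons on X, 2L, 3L, 3R or 4. Sequence is from RefSeq Release 6, the assembly of dm6. Capitals mark the words searched on either strand, each on its own or overlapping another: the N-box CACNAG, the Su(H) word GTGGGAA, the E-box CACGTG and its extended form GGCACGTG, which contains it, the Hairy site CACGCG, a further E-box spelled CAGCTG, the GA repeat GAGAGAG, the DRE spelled TATCGATA, motif 1 spelled GGTCACAC, and the core of motif 7, CATCNCTA.

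E(spl)mbeta-HLH, summit 124 bp upstream, chr3R:26006047-26006247, minus strand: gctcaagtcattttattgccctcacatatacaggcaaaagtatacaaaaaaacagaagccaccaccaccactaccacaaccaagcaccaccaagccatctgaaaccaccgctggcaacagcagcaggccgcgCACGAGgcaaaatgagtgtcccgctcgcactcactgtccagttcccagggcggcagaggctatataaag
E(spl)mbeta-HLH, summit 352 bp upstream, chr3R:26006275-26006475, minus strand: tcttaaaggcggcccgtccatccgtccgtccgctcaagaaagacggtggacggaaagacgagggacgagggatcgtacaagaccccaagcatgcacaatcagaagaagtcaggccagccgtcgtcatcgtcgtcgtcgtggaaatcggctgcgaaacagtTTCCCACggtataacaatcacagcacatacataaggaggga
fok, chr2L:20085144-20085344, minus strand: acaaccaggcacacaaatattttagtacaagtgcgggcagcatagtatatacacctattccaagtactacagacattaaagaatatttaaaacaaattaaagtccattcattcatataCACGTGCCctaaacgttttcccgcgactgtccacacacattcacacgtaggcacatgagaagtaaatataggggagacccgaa
CG31871, chr2L:10661516-10661716, plus strand: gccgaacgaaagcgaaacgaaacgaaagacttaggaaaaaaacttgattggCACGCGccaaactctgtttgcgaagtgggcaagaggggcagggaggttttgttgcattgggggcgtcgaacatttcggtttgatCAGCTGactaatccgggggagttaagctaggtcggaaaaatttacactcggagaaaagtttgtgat
CG1907, chr3R:29618769-29618969, plus strand: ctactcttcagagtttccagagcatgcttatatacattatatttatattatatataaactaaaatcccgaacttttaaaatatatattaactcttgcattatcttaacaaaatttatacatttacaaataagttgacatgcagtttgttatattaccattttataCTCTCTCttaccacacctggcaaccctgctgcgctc
CG11151, chrX:13739454-13739654, plus strand: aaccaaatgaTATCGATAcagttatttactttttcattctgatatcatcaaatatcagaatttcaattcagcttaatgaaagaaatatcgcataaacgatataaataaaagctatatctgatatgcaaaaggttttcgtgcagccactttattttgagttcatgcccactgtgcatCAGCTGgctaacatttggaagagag
CG43163, chr3L:8507231-8507431, minus strand: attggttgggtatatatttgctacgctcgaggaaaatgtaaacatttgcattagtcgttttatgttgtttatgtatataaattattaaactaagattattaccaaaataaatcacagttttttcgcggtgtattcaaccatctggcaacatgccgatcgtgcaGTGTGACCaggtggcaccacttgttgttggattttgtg
Oatp30B, chr2L:9521008-9521208, plus strand: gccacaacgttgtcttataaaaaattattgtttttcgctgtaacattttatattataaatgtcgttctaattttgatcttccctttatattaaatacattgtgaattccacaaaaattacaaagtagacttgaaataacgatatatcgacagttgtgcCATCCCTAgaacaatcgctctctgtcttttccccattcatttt

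The strongest summit of the list stood at the gene of the tagged protein, E(spl)mbeta-HLH (FBgn0002733), between genes on 3R. Its signal was 19605.9 and it ranked first in replicates 1, 2 and 3. The sequence holds 1 N-box, centred 89.5 bp upstream of the TSS, and no E-box of the forms searched. The second summit of this promoter, 352 bp upstream with a signal of 8429.2, ranked 5, 6 and 118 in replicates 1, 2 and 3, and its Su(H) word lies 63 bp from the summit on the promoter side. The window at fok, on 2L, holds the extended E-box 21.5 bp from the summit, and the windows shown after it carry their words 37.5 to 86.5 bp away. A word in a window is a description and does not show that a factor binds it.

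Summits were 3.94 times as dense upstream of one-strand promoters as downstream. The reproducible list held 305 summits per Mb upstream and 77.5 per Mb downstream, where a megabase counts only positions that would fall into that class. Divergent promoters held 659 per Mb, sequence away from promoters 42.0 per Mb, and the arms as a whole 63.9 per Mb. The same counts were made in each replicate's own 8549 strongest peaks, which the rule did not use but from which the reproducible list derives. Upstream densities there were 310, 301 and 307 per Mb in replicates 1, 2 and 3, against 94.2, 85.0 and 62.9 per Mb downstream. The ranges did not overlap, and the upstream values differed little between replicates while replicate 3 had the fewest downstream summits. The log2 ratio averaged 1.94 ± 0.30 (SD, n = 3; above 0 in 3 of 3 replicates, exact sign-flip permutation test, two-sided, p = 0.25, the smallest that 3 replicates can give). In the whole lists of 30000 peaks the log2 ratio was 1.24, and in the strongest 50% of the peaks used it was 2.59.

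Upstream summits did not crowd at the start itself. The median distance was 181 bp (quartiles 96 and 294 bp), and 76.0% lay within 300 bp. Density was 326 per Mb in the first 50 bp, highest at 443 per Mb between 150 and 200 bp, and 138 per Mb between 450 and 500 bp. Downstream of the start it was highest in the first 50 bp, at 273 per Mb, and lowest between 300 and 350 bp, at 14.5 per Mb. Median distances in the replicates' own lists were 172, 184 and 190 bp. Near the limit of the rule, the members at 499 to 500 bp were CG17896 (signal 3398.7), Spn43Ad (392.9) and Sytbeta (514.6). The summits just outside, at 501 to 502 bp, were those of jar (1683.1), CG10543 (1149.0) and CG43066 (596.2).

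**Figure D1:**
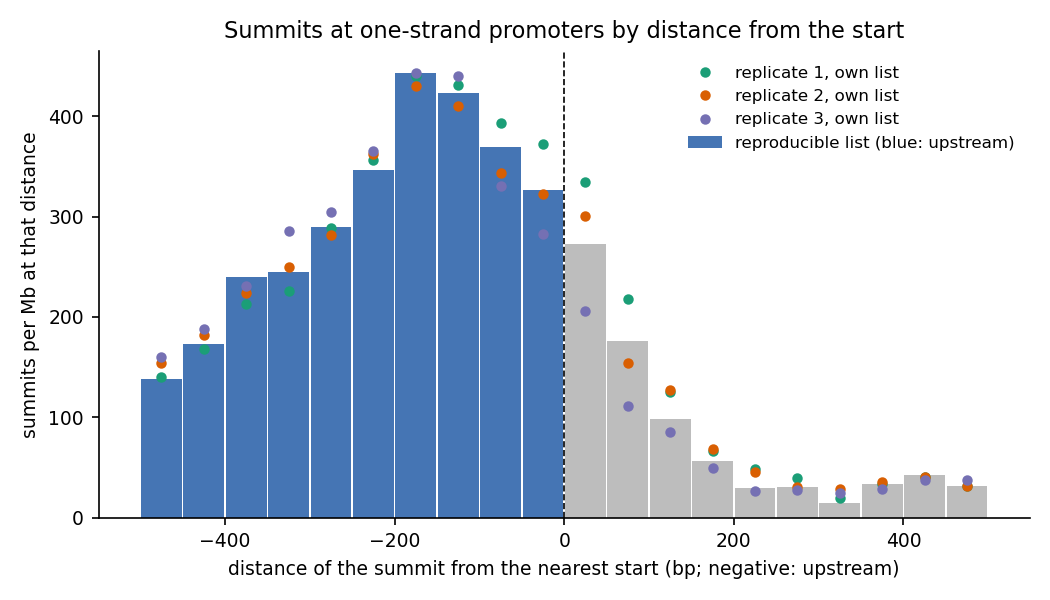
Summits per Mb (vertical axis) by distance from the nearest start in bp (horizontal axis, negative upstream) at one-strand promoters, in 50 bp steps. Bars are the reproducible list, blue upstream and grey downstream, and points are each replicate's own list; the highest bar, 443 per Mb, stands 150 to 200 bp upstream.

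Upstream summits were stronger than downstream summits and weaker than those of divergent promoters. In the reproducible list the median signal was 592 upstream, against 445 downstream and 751 at divergent promoters. Of the upstream summits, 15.9% belonged to the strongest 10% of the list, against 4.48% of downstream and 17.5% of divergent summits. Within each replicate's own list, where 100 is the strongest peak, upstream summits had median percentile ranks of 55.9, 57.1 and 55.7 in replicates 1, 2 and 3, against 39.9, 36.3 and 35.4 for downstream and 60.5, 63.0 and 70.9 for divergent summits. No upstream value overlapped either of the other classes. The difference from downstream summits averaged 19.1 ± 2.66 percentile points and that from divergent summits -8.55 ± 5.86 points (SD, n = 3; exact sign-flip permutation test, two-sided, p = 0.25 for each, the smallest possible). Each difference had a single sign in 3 of 3 replicates. In the strongest 50% of the peaks used, the difference from divergent summits was -2.40 points and below 0 in 2 of 3 replicates (exact p = 0.5), and with a TSS distance of 250 bp it was -17.4 points.

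**Figure D2:**
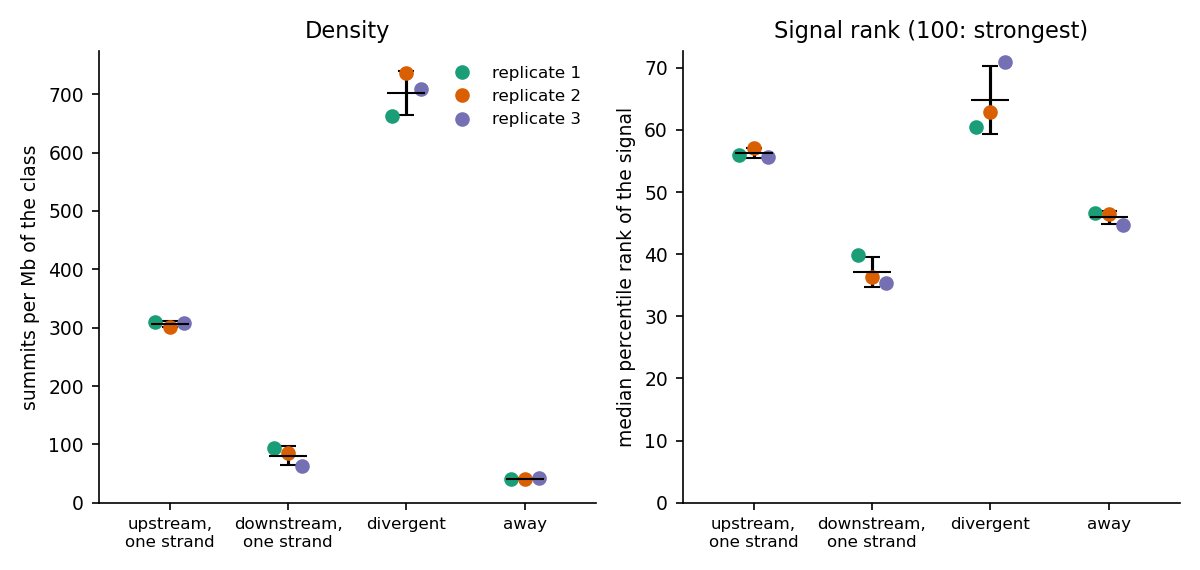
Summits per Mb of each class (left) and the median percentile rank of their signal (right, 100 strongest) in each replicate's own 8549 strongest peaks. Points are replicates and the line with bar is the mean with SD; upstream one-strand summits had ranks of 55.7 to 57.1, above the downstream and below the divergent values.

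Base composition moved with these classes. The median GC content of the 201 bp windows was 34.8% upstream, against 43.8% downstream, 31.8% at divergent promoters and 34.3% away from promoters. In the replicates' own lists, upstream windows had 36.3, 34.8 and 33.3% GC in replicates 1, 2 and 3, and downstream windows had 44.8, 43.8 and 41.8%. Replicate 3 thus had both the lowest GC content in each class and the lowest downstream density. Without replicate 3 the log2 density ratio was 1.77. The part of base composition in the densities and ranks was not tested.

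Strength changed with distance from the start. Members less than 100 bp upstream had a median signal of 456, against 719, 732, 686 and 570 in the next 4 bins of 100 bp. Only 4.75% of the members in the nearest bin were in the strongest 10% of the list, and 24.0% of those between 200 and 300 bp were. The median percentile rank of the matched peak in the full replicate lists, averaged over replicates, was 82.4 in the nearest bin, 90.0, 90.8 and 90.0 in the middle bins and 86.9 in the farthest. All replicates had their lowest value in the nearest bin and their highest between 200 and 300 bp. GC content ran the other way, with medians of 42.3, 33.8, 31.3, 31.8 and 33.8% from the nearest bin to the farthest. When members were divided by signal into 5 classes of 377, the strongest 20% lay a median of 218 bp upstream with 30.8% GC, and the weakest 20% 138 bp upstream with 39.8% GC. Whether base composition accounts for the change in strength with distance was not tested.

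**Figure D3:**
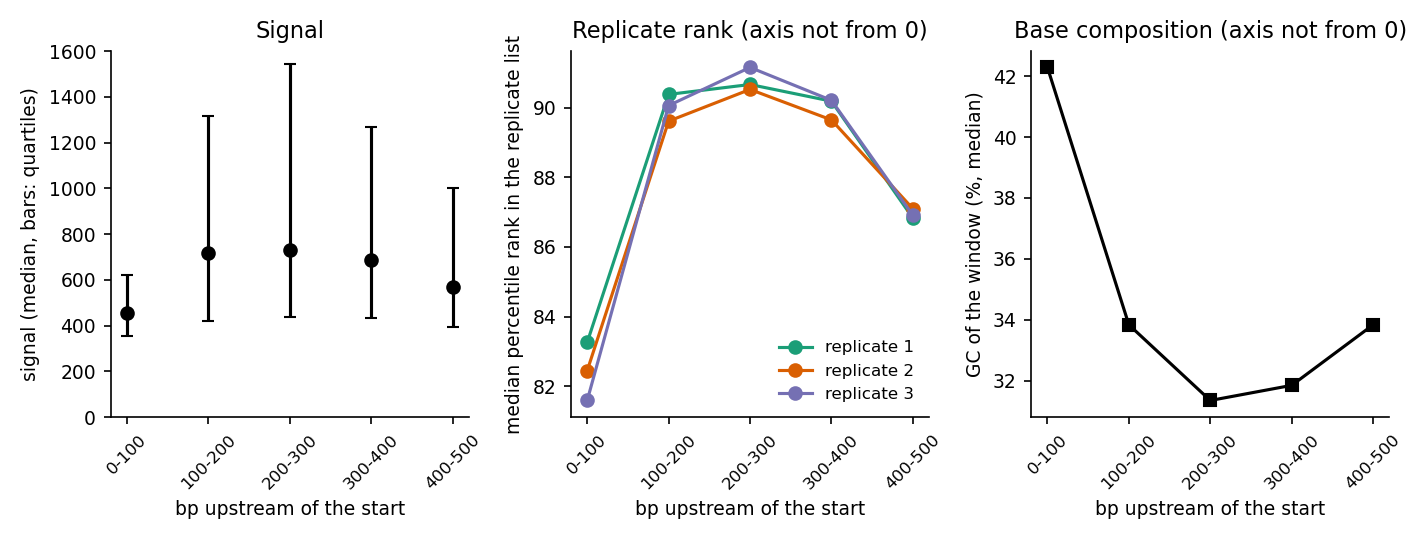
Members by distance upstream of the start in bins of 100 bp: signal in the reproducible list (left, median with quartiles), median percentile rank of the matched peak in each replicate's full list (middle) and median GC content of the window in percent (right). Signal and rank were lowest and GC content highest in the nearest bin; the middle and right axes do not start at 0.

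Most members had a nearby summit in every replicate. The reproducible list was selected for agreement between these same replicates, so a high share is no independent support. A replicate summit lay within 100 bp of 1800, 1804 and 1781 members in replicates 1, 2 and 3, and 1638 members (86.9%, exact 95% interval 85.3 to 88.4%) had one in all 3, against 87.4% of all reproducible summits. That share did not set the members apart from the background. The share fell with strength, with 97.9% of the strongest 20% and 74.3% of the weakest 20% found in all replicates. Matched summits lay a median of 12, 13.5 and 18 bp away in replicates 1, 2 and 3, and the median SD of a summit over replicates was 21.7 bp.

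The 25 strongest members stood near 24 genes of many kinds, all with a summit within 100 bp in every replicate. After E(spl)mbeta-HLH came Ugalt, which encodes a nucleotide sugar transporter, with a signal of 10525.3 at 32 bp upstream and ranks of 4, 4 and 5 in replicates 1, 2 and 3. Next came px (8324.8), Fkbp14, an endoplasmic reticulum prolyl isomerase gene (7778.7), CG18549 (7651.8), CG14100 (7500.0) and msi, the Musashi RNA-binding protein gene (7378.3). The Musashi summit lay 251 bp upstream and ranked 14, 38 and 25 in replicates 1, 2 and 3. The glycolytic gene Gapdh2 had 7242.4, CG31871 7144.4, gish, a casein kinase gene, 7141.6, and Mnn1, the menin gene, 7126.5. Tina-1, CG31145, C1GalTA, CG1635, CG1888, mRpL41 and E23 had signals of 6238.3 to 6917.0, and RapGAP1, ph-p, RluA-1, osp, MFS18 and larp 5494.1 to 5981.7. Of these, mRpL41 encodes a mitochondrial ribosomal protein, C1GalTA a glycosyltransferase, and ph-p a Polycomb group protein. Replicate ranks of the 25 summits reached 118 at the lowest, at the second E(spl)mbeta-HLH summit in replicate 3.

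Within the E(spl) complex, 5 of the 7 basic helix-loop-helix genes had a member, in the reproducible list and in each replicate's own list. The count was 3 when interval midpoints took the place of summits, and 0 when only intervals with a single summit were used. E(spl)m7-HLH had summits at 369 and 168 bp upstream with signals of 2823.6 and 1224.8, and E(spl)mgamma-HLH at 350 and 76 bp with signals of 929.4 and 505.6. E(spl)m3-HLH had 1 at 340 bp (2533.5) and E(spl)m8-HLH 1 at 159 bp (816.6). E(spl)mdelta-HLH had its nearest summit 326 bp away and classed as divergent, and E(spl)m5-HLH had its nearest summit 1037 bp away. The E(spl)m7-HLH summit at 369 bp ranked 236, 306 and 477 in replicates 1, 2 and 3. Of the 8 E(spl) summits, the Su(H) word stood in 3 windows, at the second summit of E(spl)mbeta-HLH, at the farther one of E(spl)mgamma-HLH and at E(spl)m8-HLH. Over all members the word stood in 53 windows (2.81%), against 2.46% of promoters without a summit at matched distances. The E(spl)m8-HLH window also held 3 N-boxes. No E(spl) window held CACGTG or the Hairy site, which says only that these letters are not within 100 bp of the summits. All these genes lie close to the tagged gene on 3R, and the share of the transgene in their signal was not measured.

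The members lay nearest to 1741 TSSs of 1629 protein-coding genes, which is 11.7% of the 13945 genes, or 15.1% of the 10805 genes whose promoters leave room for one. A pair of members shared a TSS in 144 cases, 199 to 359 bp apart with a median of 203 bp. Most members, 1104 (58.6%), lay between genes, 550 (29.2%) in an intron of the gene itself, 90 in one of its exons, and 99 and 42 in an intron and an exon of another gene. For 635 members (33.7%) the nearest TSS was an internal start and not the outermost start of its gene. The nearest TSS was the outermost start for 66.3% of the members, against 74.3% of all one-strand promoters. A noncoding transcript started on the opposite strand within 500 bp of 109 members (5.78%). Density on the large arms was 293 to 316 per Mb, and chromosome 4 held 5 members at 97.2 per Mb, with 104 ± 59.4 per Mb over replicates (SD, n = 3).

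The DRE, motif 7 and motif 1 were more frequent at members than at one-strand promoters without a summit. For this comparison windows were placed at the centre of the same distance bins at promoters more than 1000 bp from any reproducible summit and weighted by the members' distances. The DRE stood in 92 member windows (4.88%, exact 95% interval 3.95 to 5.95%), against 1.88% of promoters without a summit, a ratio of 2.59. Motif 7 stood in 77 (4.08%, 3.24 to 5.08%), against 1.49%, and motif 1 in 54 (2.86%, 2.16 to 3.72%), against 1.19%. Of all one-strand promoters 181 bp upstream, the DRE stood in 1.38%, motif 7 in 1.29% and motif 1 in 0.634%. With promoter windows at that 1 distance in place of the matched ones, the ratio to promoters without a summit was 3.97 for the DRE, 3.47 for motif 7 and 6.20 for motif 1. The DRE kept to the start: it was in 12.2% of members less than 100 bp upstream, against 3.83% of promoters without a summit there, and in 0.258% of members 200 to 300 bp upstream, against 0.877%. Away from the start, between 200 and 300 bp, motif 7 was in 2.58% of members, against 1.04%, and motif 1 in 1.29%, against 0.303%. The core promoter words TATAAA and TCAGTT, the initiator, had other patterns. TATAAA stood in 35.8% of members, against 29.7% of promoters without a summit, but in 23.6%, against 31.3%, in the nearest bin. The initiator stood in 14.1%, against 16.0%, and in 17.4%, against 24.5%, in the nearest bin. Motif 7 read in the direction of transcription in 59 of 82 occurrences. Members with the DRE had a median signal of 472 and those with motif 1 of 425, below the 592 of all members, and no member with motif 1 was in the strongest 10% of the list. Members with the DRE lay a median of 75.5 bp and those with motif 1 of 81 bp upstream, and the nearest bin as a whole had a median of 456. Members with motif 7 had a median signal of 586, and 14.3% of them were in the strongest 10%.

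Of the hexamers of the kind bound by the family, the Hairy site and the E-box CACGTG were each found at fewer than 1 in 10 members. The Hairy site stood in 129 member windows (6.84%, 5.75 to 8.08%), against 3.64% of promoters without a summit and 3.62% of all one-strand promoters. In this paragraph the value for promoters without a summit is at matched distances, and that for all one-strand promoters at 181 bp only. At 181 bp, promoters without a summit had 3.33% for the Hairy site and 2.31% for CACGTG. They had 0.305% for its extended form and 5.31% for GA repeats. Members with the Hairy site had a median signal of 462, and 9.30% of them were in the strongest 10% of the list. The share of the Hairy site was 3.71% in the strongest 20% of members and 10.1 and 9.28% in the weakest 2 of the 5 classes. The E-box CACGTG stood in 66 (3.50%, 2.72 to 4.43%), against 2.23% and 2.37% of those promoters. Its extended form stood in 19 (1.01%, 0.608 to 1.57%), against 0.323% and 0.309%. All 19 were found in every replicate, their median signal was 990, and 15 of 20 occurrences lay within 50 bp of the summit. The other words were less centred, with 36 of 67 occurrences within 50 bp for CACGTG, 79 of 146 for the Hairy site and 138 of 325 for GA repeats. CACGTG had 0.189 occurrences per kb within 50 bp of the summit and 0.186 per kb at 200 to 300 bp. The Hairy site had 0.415 and 0.369 per kb. Among summits away from promoters, the Hairy site stood in 6.71%, CACGTG in 4.04% and the extended form in 1.57%. Those shares were close to or above the members' shares, so these words did not set members apart from summits away from promoters. The extended form stood in 1.55% of downstream and 0.453% of divergent windows. The N-box stood in 20.1%, against 20.3% of promoters without a summit, which does not set the members apart. The E-box CAGCTG stood in 195 (10.3%, 9.01 to 11.8%), against 8.47%, and that spelled CAGGTG in 4.35%, against 6.91%. GA repeats stood in 141 (7.48%, 6.33 to 8.76%), against 4.40% and 6.80%, with 9.51, 7.42 and 5.06% in the own lists of replicates 1, 2 and 3. The AT-rich control word TTTTAAA stood in 24.4% of members, against 16.9%. The intervals count windows only. Neither GC content nor accessibility was matched: promoter windows without a summit had median GC of 41.3, 38.3, 37.8, 38.3 and 39.3% from the nearest bin to the farthest, and members 42.3, 33.8, 31.3, 31.8 and 33.8%. None of the DRE, motif 1, motif 7, GA repeat, Hairy site or CACGTG was found in 1410 members (74.8%).

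**Figure D4:**
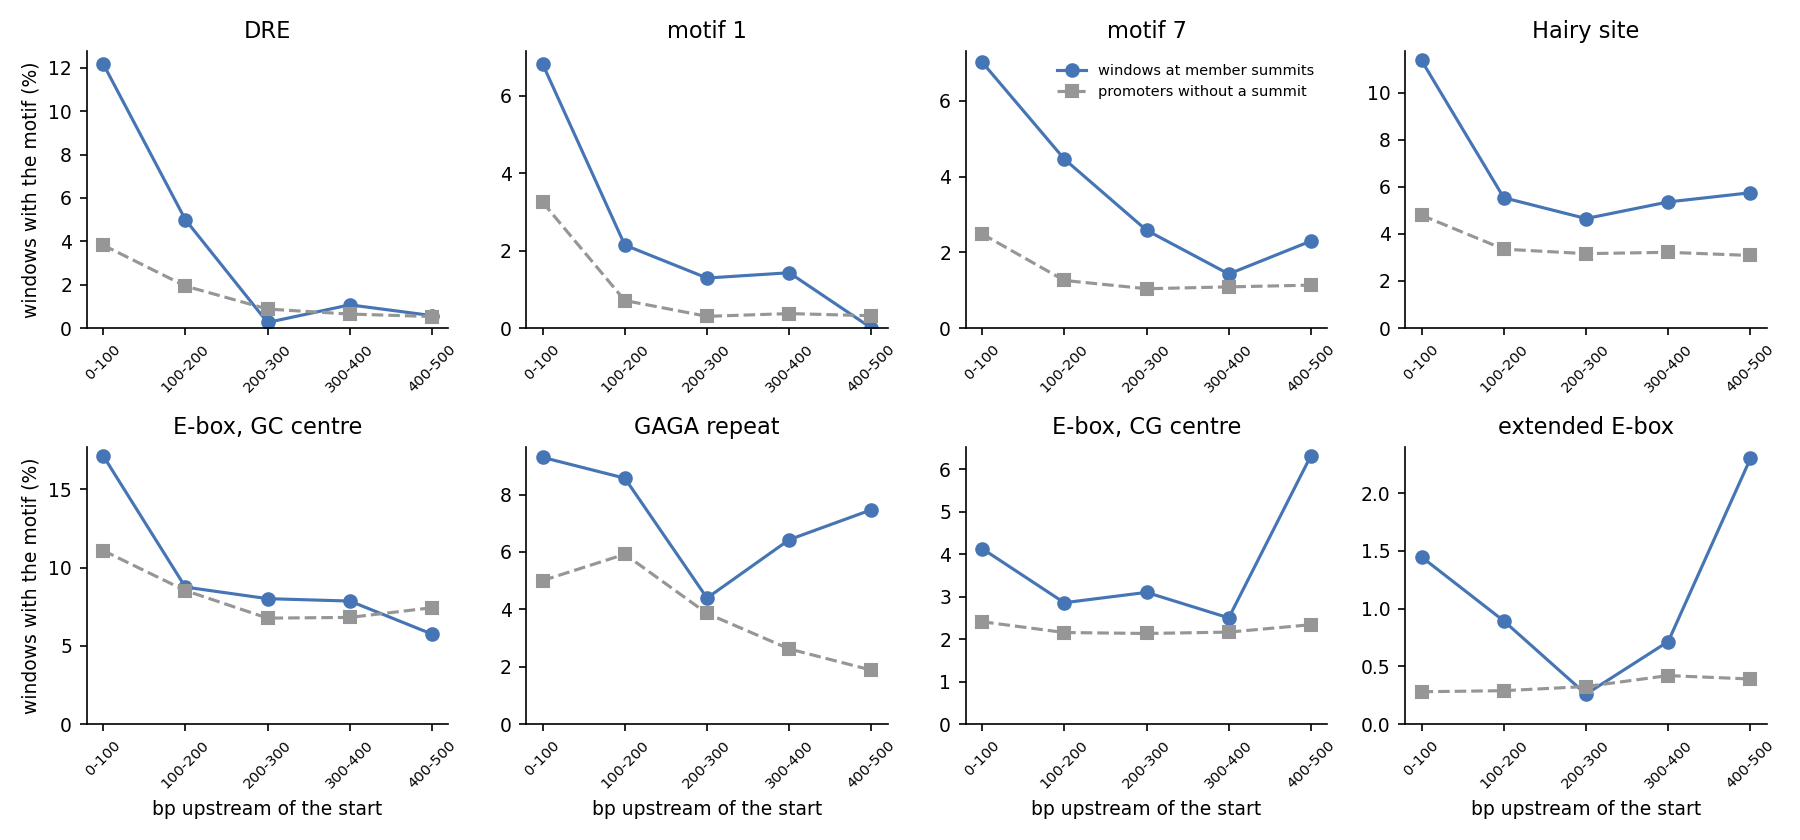
Share of windows with each word, in percent, by distance upstream of the start in bins of 100 bp, for windows at member summits (blue circles) and one-strand promoters without a summit (grey squares). In the nearest bin the DRE stood in 12.2% of member windows and 3.83% of promoters without a summit. The E-box with a CG centre is CACGTG and that with a GC centre CAGCTG.

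Downstream and divergent windows differed from members in the words they held. The Hairy site averaged 6.01 ± 0.875% of upstream windows in the replicates' own lists, against 17.7 ± 0.631% of downstream windows, lower in 3 of 3 replicates. The E-box CACGTG averaged 3.46 ± 0.352% upstream, against 4.78 ± 0.289% downstream, also lower in 3 of 3. That difference of -1.32 percentage points was -0.292 with outermost TSSs only and -1.99 in the strongest 50%, and below 0 in 2 of 3 replicates under each (exact p = 0.5). The DRE averaged 4.90 ± 0.551% upstream, against 10.7 ± 0.465% at divergent promoters, and motif 1 2.73 ± 0.194%, against 6.33 ± 0.812%. GA repeats averaged 7.33 ± 2.23% upstream, against 1.20 ± 0.520% at divergent promoters. Each of these was the same way in 3 of 3 replicates (SD, n = 3; exact sign-flip permutation test, two-sided, p = 0.25, adjusted p = 0.308 over 16 words), the smallest p that the design allows, so no word passed the test at 0.05. Upstream and downstream shares of the DRE were closer, at 4.90 and 4.70%, as were those of motif 7, at 4.06 and 3.82%. Motif 1 was less frequent upstream than downstream, at 2.73 and 5.34%, in 3 of 3 replicates. TATAAA stood in 36.2% of upstream and 20.6% of downstream windows, and the control word TTTTAAA in 24.9 and 12.5%. Both were higher upstream in 3 of 3, so a control word also differed between these classes. The GC content given above differs between the classes in the same lists, and its part in these differences was not tested.

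The genes nearest to members were counted in 15 lists. The 11.7% of all protein-coding genes is the background for each share, and lists whose genes have more TSSs have more places for a summit. Notch pathway genes had a member in 10 of 24 cases (41.7%), with 10, 8 and 12 in the own lists of replicates 1, 2 and 3. The strongest were at numb (3507.2), whose product inhibits Notch, sgg (2599.0), the Shaggy kinase gene, and gro (2456.8), the Groucho corepressor gene. The receptor gene N had 389.6 at 256 bp, and the ligand gene Delta 445.1 at 50 bp, which was not found in all replicates. Neuroblast and neural precursor genes had one in 15 of 29 cases (51.7%; 15, 16 and 13 in the replicates). After numb the strongest were chn (2044.0) and wor (1799.5), both zinc finger genes. The proneural gene ato had 1250.7 and da, which encodes the partner of proneural proteins, 625.2. Genes of EGF and FGF receptor signalling had one in 7 of 22 cases (31.8%), led by aos (3378.3), an inhibitor of the EGF receptor, spi (3351.9), its ligand, and stumps (1733.1), an FGF receptor adaptor. Cell cycle genes had one in 8 of 22 cases (36.4%), led by Dp (1972.5) and E2f1 (861.1), which encode the subunits of E2F, and dap (753.8), a cyclin-dependent kinase inhibitor gene. The E2f1 summit was not found in all replicates. These lists averaged 2.08, 1.72, 1.82 and 1.95 TSSs a gene, against 1.41 over all genes. With the outermost TSS of each gene only, the counts were 6 of 24 for the Notch pathway, 12 of 29 for neuroblast genes, 2 of 22 (9.09%) for EGF and FGF receptor signalling and 5 of 22 for the cell cycle, where 1255 of the 13945 genes (9.0%) had a member. With a TSS distance of 250 bp, the EGF and FGF and cell cycle lists had 4 genes each.

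Cytoplasmic ribosomal protein genes had a member in 29 of 92 cases (31.5%; 21, 27 and 32 in the own lists of replicates 1, 2 and 3). Those summits sat near the start, a median of 56 bp upstream, against 176 bp for all genes with a member. The DRE stood in 27.6% of their windows, against 12.2% of all members less than 100 bp upstream. The strongest were at RpL11 (2942.5), RpS7 (2059.6) and RpL24 (1761.1). Of the 92 genes, 37 had a divergent summit, 11 a downstream summit and 19 no promoter summit, and a gene can have more than 1 kind. Translation initiation factor genes had one in 9 of 44 cases (20.5%), led by eIF6 (3626.6), eIF3c (1413.3) and eIF2D (992.8). Mitochondrial ribosomal protein genes had one in 3 of 73 (4.11%), mRpL41 (6469.7), mRpL19 (837.0) and mRpL9 (475.0), and 36 of the 73 had a divergent summit. The promoters of 20 of the 73 leave room for a member, and 3 of 20 is 15.0%, against 15.1% of all genes with room. Proteasome genes had one in 3 of 48 (6.25%), Rpn11 (1158.7), Rpn12 (565.8) and Prosalpha2 (351.8). Respiratory chain and ATP synthase genes had one in 2 of 80 (2.50%), UQCR-14 (462.4) and ND-B22 (385.8). Among genes with room the shares were 48.3% for cytoplasmic ribosomal proteins, 29.0% for initiation factors, 10.3% for the proteasome and 4.35% for the respiratory chain. With a TSS distance of 1000 bp, 19 cytoplasmic ribosomal protein genes had a member.

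The other lists had few genes with a member. Neuronal and synaptic genes had a member in 3 of 18 cases (16.7%), elav, a neuronal RNA-binding protein gene (4953.1), its relative fne (578.9) and the synapsin gene Syn (385.2). Muscle contractile genes had one in 3 of 16 (18.8%), sls (1303.6), the titin-like Sallimus gene, Act87E (1291.1) and Tm1 (1211.2). Chromatin and insulator genes had one in 4 of 27 (14.8%), ph-p (5882.5), BEAF-32 (902.3), Iswi (438.4) and ph-d (427.6). The exact 95% intervals of these shares, 3.58 to 41.4%, 4.05 to 45.6% and 4.19 to 33.7%, include the background. So do the intervals of the translation initiation factor genes, 9.80 to 35.3%, and of the proteasome genes, 1.31 to 17.2%. The shares of these lists are thus not set apart from the background. Cuticle protein genes had one in 4 of 93 (4.30%), Cpr67Fb (510.8), Cpr65Ea (431.5), Ccp84Ag (357.4) and Cpr67Fa1 (312.2). Chemoreceptor genes had none in 179, which allows a share of up to 1.68% by the limit of 3 counts, or 2.04% by the exact 95% interval, and 1, 0 and 0 in the own lists of replicates 1, 2 and 3.

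**Figure D5:**
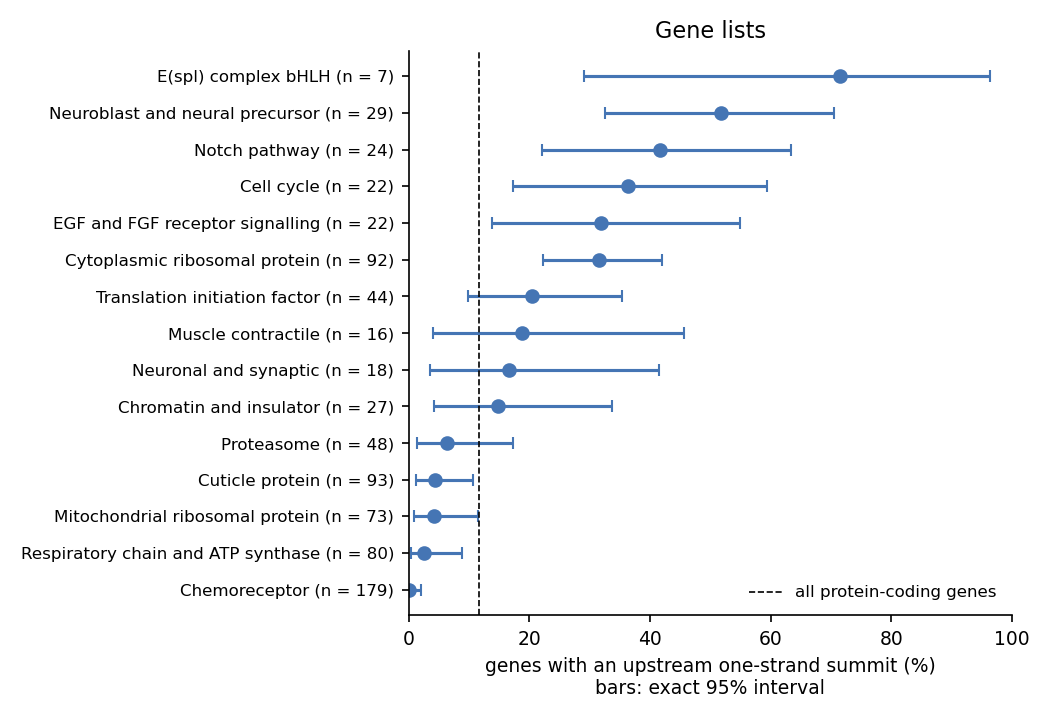
Share of the genes of each list with a summit upstream of a one-strand promoter, in percent (points) with exact 95% intervals for counting (bars), ordered by share. The dashed line is the 11.7% of all protein-coding genes; E(spl) complex genes stand highest at 71.4% and chemoreceptor genes lowest at 0.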

How the data were processed

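Peak lists were analysed for 3 biological replicates of 1 group. Per the files' provenance notes and the labels, the authors called peaks on dm6 for each replicate and for pooled alignments against 1 control alignment; the aligner and caller were not given in the sources used here. The deposited signal of a peak is the authors' enrichment over control, comparable within a list only. The deposited −log10 q-value was read and not used. Each replicate list held 30000 peaks, of which 5 of replicate 1 lay off the arms, and the reproducible list, selected by the irreproducible discovery rate, held 8549. Peaks were used as deposited; 2 members had a summit past the end of their peak. Depth is unknown, and intervals cover counting only.

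TSSs came from protein-coding transcripts of Ensembl release 115 on the 6 large chromosome sequences (arms). Densities divide summits by the bases of their class. Classes were compared within each replicate's 8549 strongest peaks by exact sign-flip permutation tests, with Benjamini and Hochberg adjustment over 16 words. Python 3.11.15, numpy 2.4.6, pandas 2.3.3, scipy 1.17.1 and matplotlib 3.10.9 were used, and classing, matching and word searches were tested on simulated data. Genes were named as those nearest to the 25 strongest members, the 3 strongest of each list, all E(spl) basic helix-loop-helix genes, the strongest member for each word, and those at the distance limit; N, Delta, ato and da were named after their values were seen. List entries not found by symbol were 3: Dl was matched by its identifier as Delta, and nct and phl through synonyms as Nct and Raf. The members, lists and words were chosen with earlier results of these data known. Alternatives were the strongest 50% of each list, whole replicate lists, other TSS distances, the outermost TSS only, interval midpoints, single-summit intervals, each replicate left out, other match radii and word windows, 1 member per TSS, and promoter windows at 1 fixed distance. The distance-matched promoter windows were chosen after seeing the data.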

Additional observations from a re-analysis of the deposited data

How the results depend on the processing

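Mean density and rank differences kept their sign under every alternative run, although the rank difference from divergent summits was below 0 in 2 of 3 replicates in the strongest 50%. The number of members was 1052 in the strongest 50% of the list, where members made up 24.6% of summits, lay a median of 202 bp upstream, were 6.13 times as dense as downstream summits and were found in all replicates in 93.3% of cases. Members made up 18.1%, 24.3% and 15.5% of summits with a TSS distance of 250 bp, with 1000 bp and with outermost TSSs only, at median distances of 126.5, 230.0 and 167 bp. With 1000 bp their median signal was 1.21 times that of downstream summits. The share found in all replicates was 61.4% within 50 bp and 95.1% within 200 bp. The DRE share minus that of downstream windows was 0.198 percentage points in the replicates' own lists. It reversed to -0.450 in the strongest 50% of those peaks and to -0.862 with windows of 150 bp on each side. The cause was not tested. Leaving out each replicate gave log2 density ratios of 1.77 to 2.06. Rank differences were then 18.2 to 20.6 points from downstream and -10.5 to -5.19 points from divergent summits. Members numbered 1704 to 1723 when only reproducible summits matched within 100 bp in the remaining replicates were kept. The reproducible list itself was not remade, so the left-out replicate still shaped that count. Of the other values, 281 stayed within their range and 71 moved.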
